A study of Mus musculus with 4 samples.

Results

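Red blood cells and their precursors carry the RNA of a small set of genes for globins, haem synthesis, the red cell membrane and erythroid transcription, and 38 such genes were examined here in the fetal mouse lung. They were listed by gene name. Of the 38, 36 were found in the count table by that name, Epb42 was found by its identifier under an older symbol, and Ahsp, the chaperone of free alpha globin, was not analysed here. The 37 genes found are among 45706 genes in the table. RNA of left lung lobes at embryonic day 17 (E17) was sequenced from 2 Myh10+/+ and 2 Myh10-/- embryos, each lung from a separate animal. Both genotypes were on the C57BL/6 strain and untreated. The Myh10-/- embryos were homozygous for L458R, a missense allele found in a chemical mutagenesis screen that lies in the motor domain of nonmuscle myosin heavy chain II-B, and they carried it in every cell. The allele is therefore not a deletion and not specific to a cell type of the lung.

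As background, globin chains of the alpha-like and beta-like families combine into haemoglobin. Embryonic chains are made mainly by primitive red cells of the yolk sac, and adult chains by definitive red cells that arise in the fetal liver and replace the primitive ones in the circulation during the later part of gestation. Haem is built by a chain of enzymes whose erythroid first step is Alas2. Maturing red cells lose their nuclei but keep globin RNA for some time, so a lung lobe that holds blood yields globin reads. The lung itself is not known as a site of red cell formation in the fetus, while several haem enzymes and iron carriers are used by most cells.

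The total count on genes was between 19116971 and 32055306 per lung. Levels are given as CPM, read counts scaled to a common library size with TMM factors, and fold changes are Myh10-/- over Myh10+/+ on the log2 scale with the standard error (SE), from edgeR's quasi-likelihood test, with p-values adjusted by Benjamini-Hochberg over the 18763 tested genes. The median log2 fold change over those genes was 0.00. Myh10 itself was counted at 505 and 504 CPM in Myh10+/+ lungs and at 539 and 513 CPM in Myh10-/- lungs (log2 fold change 0.06, SE 0.06, adjusted p = 0.662), and a missense allele need not alter its count. By the counts of Xist and the Y-linked Ddx3y, each genotype had 1 lung of either sex, lung 1 of Myh10+/+ and lung 2 of Myh10-/- being the Xist-high ones. In RNA of a whole lobe, fewer red cells and less of an RNA per red cell cannot be told apart.

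Most of the tested erythroid genes were fitted lower in Myh10-/- lungs, and 2 passed the test, Alas2 and Hba-a2, both lower. Of the 37 genes, 34 had a mean of at least 5 counts and were tested. Among these, 26 were fitted lower and 8 higher, with a median log2 fold change of -0.23 and a range from -1.21 to 0.48. The 2 genes called lower stand beside 1.34% of all tested genes called in that direction. No gene of the list was called higher by edgeR, where the share of all genes was 0.298%, and DESeq2's Wald test called 0 higher and 1 lower, Slc4a1. That Wald test called 259 genes lower and 92 higher in all. It gave no adjusted p-value to many of the members with lower counts, so it could not call these. Among them were Hba-x, Hbb-y, Hbb-bh1, Tspo2, Epb42 and Ank1. At an unadjusted p under 0.05, 11 members were lower, beside 9.02% of all tested genes, and 2 were higher, Hbb-y and Slc25a37, beside 7.52%. Both Myh10-/- lungs lay below both Myh10+/+ lungs for 16 members, beside 24.3% of all genes, and above them for 3, beside 23.9%. The number called depended on single lungs, and leaving 1 out also changed how many of all genes were called. The median log2 fold change of the members was -0.16 without Myh10+/+ lung 2 and -0.15 without Myh10-/- lung 1. It was -0.22 without Myh10+/+ lung 1 and -0.26 without Myh10-/- lung 2.

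**Figure D1:**
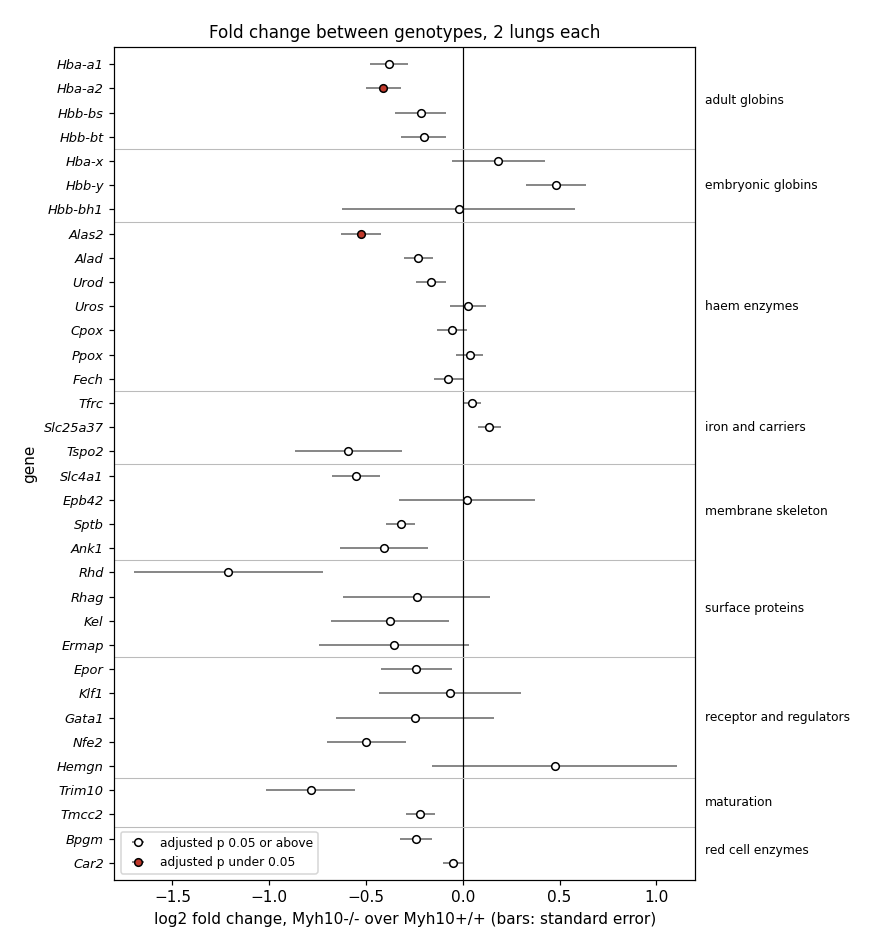
Log2 fold change of Myh10-/- over Myh10+/+ (x axis) for the 34 tested genes (y axis), grouped by role, with bars for the standard error and filled points for an adjusted p under 0.05. Points of the adult globins and most membrane genes lie left of 0, the points for Alas2 at -0.53 and Hba-a2 at -0.41 are filled, and Hbb-y lies to the right at 0.48.

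The adult globins were the most abundant genes of the list. Hbb-bs, an adult beta globin, was counted at 2467 and 3078 CPM in Myh10+/+ lungs and at 2244 and 2526 CPM in Myh10-/- lungs. Its partner Hbb-bt was counted at 740 and 961 CPM in Myh10+/+ lungs and at 683 and 794 CPM in Myh10-/- lungs. For both beta globins Myh10+/+ lung 2 was the highest and Myh10-/- lung 1 the lowest, and the genotypes overlapped. Their log2 fold changes were -0.22 (SE 0.13, adjusted p = 0.445) for Hbb-bs and -0.20 (SE 0.11, adjusted p = 0.408) for Hbb-bt. Neither passed the test. These values rested on single lungs. Without Myh10+/+ lung 2 they were -0.0492 and -0.00343, without Myh10+/+ lung 1 they were -0.37 and -0.38, and without Myh10-/- lung 1 they were -0.13 and -0.0966. Without Myh10-/- lung 2 they were -0.30 and -0.31 and both genes were called (adjusted p = 0.0324 and 0.0449).

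The adult alpha globins were separated more clearly. Hba-a1 was counted at 572 and 716 CPM in Myh10+/+ lungs and at 464 and 524 CPM in Myh10-/- lungs. Hba-a2 was counted at 388 and 473 CPM in Myh10+/+ lungs and at 297 and 351 CPM in Myh10-/- lungs. Both genes were lower in each Myh10-/- lung than in each Myh10+/+ lung. Hba-a2 fell by 0.41 on the log2 scale (SE 0.09, edgeR adjusted p = 0.0475), to 75.2% of the Myh10+/+ level, and Hba-a1 had a log2 fold change of -0.38 (SE 0.10, adjusted p = 0.0740) that did not pass. The call of Hba-a2 was held in 8 of 14 alternatives. It was lost without Myh10+/+ lung 2 (log2 fold change -0.26) and without Myh10-/- lung 1 (-0.29). It was also lost with DESeq2's Wald test (adjusted p = 0.251), and in edgeR with DESeq2's size factors (0.0506), the filterByExpr filter (0.0542) and robust = TRUE (0.0726). Hba-a1 was called in 7 of 14 alternatives. It was called without Myh10+/+ lung 1 (adjusted p = 0.00109) and without Myh10-/- lung 2 (0.00164), and not without Myh10+/+ lung 2 (log2 fold change -0.21, adjusted p = 0.555) or without Myh10-/- lung 1 (-0.29, 0.223). With the counts of each near-identical pair added together, the alpha pair had a log2 fold change of -0.39 (SE 0.11, adjusted p = 0.0986) and the beta pair one of -0.21 (SE 0.14, adjusted p = 0.480).

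**Figure D2:**
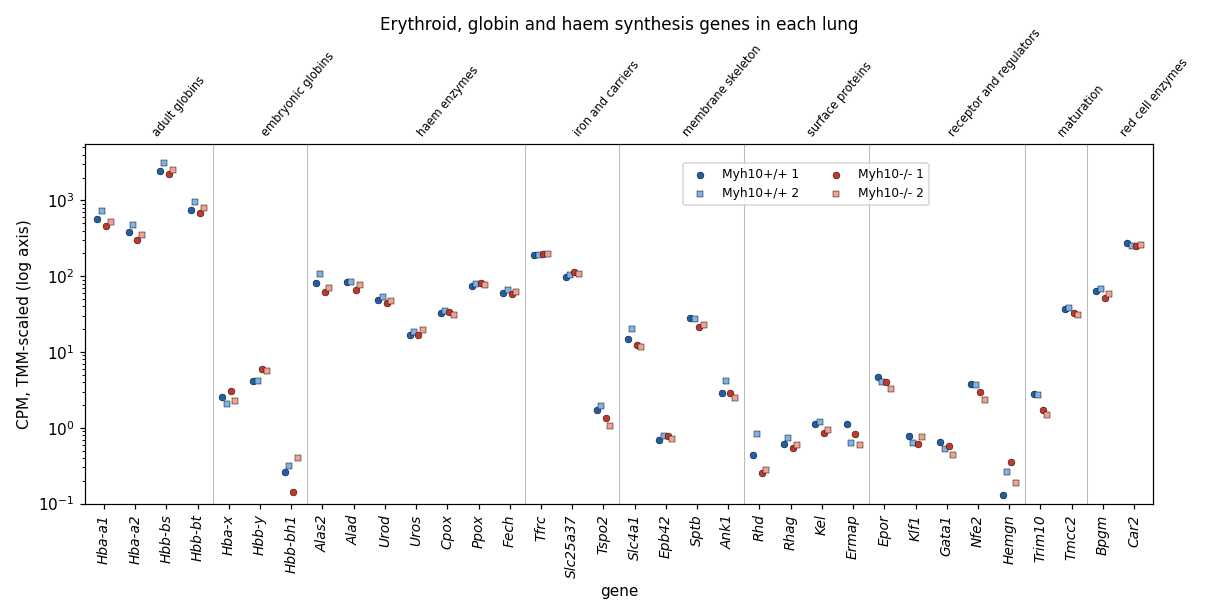
CPM on a log axis (y) of the 34 tested genes (x) in each of the 4 lungs, grouped by role, blue for Myh10+/+ and red for Myh10-/-, circles for lung 1 and squares for lung 2. Adult globins lie between 297 and 3078 CPM and embryonic globins between 0.144 and 5.93 CPM, and for the adult globins the light blue square of Myh10+/+ lung 2 is the highest point.

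How far reads can tell the globins apart is set by their sequence, because the authors left out reads that aligned to several regions. Reads were 75 bases long. Of the stretches of that length in the transcripts of Hba-a1, 62.2% were also found in Hba-a2, and 81.0% of those of Hba-a2 were found in Hba-a1. For the beta pair, 55.8% of these windows of Hbb-bs and 56.6% of those of Hbb-bt were shared. No window of Hba-x, Hbb-y or Hbb-bh1 occurred in another gene. The level of each adult globin thus rests on the part of its transcript that differs, and the split between the members of a pair is uncertain. The first 75 coding bases, all within coding exon 1, show this for the alpha-like family at chr11:32283707-32283781 on the plus strand (Hba-a1), chr11:32296524-32296598 on the plus strand (Hba-a2) and chr11:32276664-32276738 on the plus strand (Hba-x), on GRCm38 with GENCODE M21 annotation. Capitals mark bases that differ from Hba-a1.
Hba-a1: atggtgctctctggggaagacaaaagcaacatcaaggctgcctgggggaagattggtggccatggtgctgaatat
Hba-a2: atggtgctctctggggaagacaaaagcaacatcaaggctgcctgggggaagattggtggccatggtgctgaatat
Hba-x: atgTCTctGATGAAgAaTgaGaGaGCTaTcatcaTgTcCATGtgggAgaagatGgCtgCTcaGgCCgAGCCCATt
The 2 adult alpha sequences are the same over this stretch and differ at 1 of 429 coding bases in all, so a read from here could not be assigned to either gene. The embryonic Hba-x differs at 38 of these 75 bases and shares 62.0% of its coding bases with Hba-a1. The beta-like genes are shown for the same reason, at chr7:103827801-103827875 on the minus strand (Hbb-bs), chr7:103813795-103813869 on the minus strand (Hbb-bt), chr7:103853078-103853152 on the minus strand (Hbb-y) and chr7:103843036-103843110 on the minus strand (Hbb-bh1), with capitals for bases that differ from Hbb-bs.
Hbb-bs: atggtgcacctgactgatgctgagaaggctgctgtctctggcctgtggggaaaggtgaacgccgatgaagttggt
Hbb-bt: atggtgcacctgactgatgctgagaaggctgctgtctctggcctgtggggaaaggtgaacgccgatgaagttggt
Hbb-y: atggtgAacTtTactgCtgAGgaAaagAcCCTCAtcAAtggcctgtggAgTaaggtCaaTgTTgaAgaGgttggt
Hbb-bh1: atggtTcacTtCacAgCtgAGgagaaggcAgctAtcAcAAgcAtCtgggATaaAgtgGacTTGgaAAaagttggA
Hbb-bs and Hbb-bt are the same here and differ at 1 of 444 coding bases. Hbb-y differs at 23 and Hbb-bh1 at 24 of the 75 bases, and over the whole coding sequence they share 74.3% and 74.1% of bases with Hbb-bs. Divided by the number of windows found in no other gene, mean levels in Myh10+/+ lungs were 9832 CPM per 1000 windows for Hbb-bs, 4731 for Hba-a2, 3115 for Hbb-bt and 2729 for Hba-a1, against 7.37 for Hbb-y, 2.68 for Hba-x and 0.535 for Hbb-bh1.

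The embryonic globins were at trace levels, and 2 of the 3 were fitted higher in Myh10-/- lungs. Hbb-y, the embryonic beta-like chain, was counted at 4.15 and 4.09 CPM in Myh10+/+ lungs and at 5.93 and 5.59 CPM in Myh10-/- lungs. Both Myh10-/- lungs lay above both Myh10+/+ lungs, and replicates lay close together. The log2 fold change was 0.48 (SE 0.15), with an unadjusted p of 0.00893 and an adjusted p = 0.146 in the edgeR test, so the gene did not pass. It was called when no filter on low counts was used (adjusted p = 0.0472) and in no other alternative. DESeq2's Wald test gave it no adjusted p-value. Hba-x, the embryonic alpha-like chain, was counted at 2.57 and 2.05 CPM in Myh10+/+ lungs and at 3.05 and 2.27 CPM in Myh10-/- lungs, which overlapped (log2 fold change 0.18, SE 0.24, adjusted p = 0.755). Hbb-bh1, a further embryonic beta-like chain, had between 4 and 13 reads per lung and a log2 fold change of -0.02 (SE 0.60).

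A ratio of reads within a lung does not depend on how much blood RNA that lung held. Embryonic globins took 0.167% (160 of 95659 globin reads, 95% Clopper-Pearson interval 0.142% to 0.195%) and 0.123% (123 of 99721, interval 0.103% to 0.147%) of globin reads in the Myh10+/+ lungs. In the Myh10-/- lungs they took 0.247% (254 of 102901, interval 0.217% to 0.279%) and 0.197% (266 of 135349, interval 0.174% to 0.222%). Both Myh10-/- lungs had the larger share. The mean was 0.145% ± 0.031 (SD, n = 2) in Myh10+/+ and 0.222% ± 0.036 (SD, n = 2) in Myh10-/- lungs, and the exact two-sided permutation test gave p = 0.333, the smallest that 2 against 2 lungs allow. The intervals cover counting error only. Between 55.8% and 81.0% of the windows of each adult globin were shared and none of the embryonic ones, so these are not shares of the RNA. Divided by the windows found in no other gene, the shares were 0.0600% and 0.0453% in Myh10+/+ lungs. In Myh10-/- lungs they were 0.0918% and 0.0745%. Within the beta-like family the share of Hbb-y and Hbb-bh1 was 0.137% and 0.109% in Myh10+/+ lungs and 0.207% and 0.180% in Myh10-/- lungs. Within the alpha-like family the share of Hba-x was 0.267% and 0.172% in Myh10+/+ lungs and 0.400% and 0.258% in Myh10-/- lungs, so that here the genotypes overlapped (exact permutation p = 0.667).

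The balance of adult chains was also compared, a ratio added after the values had been seen. The 2 alpha genes made up 23.0% (interval 22.8% to 23.3%) and 22.7% (22.5% to 23.0%) of adult globin reads in Myh10+/+ lungs, and 20.6% (20.4% to 20.9%) and 20.9% (20.6% to 21.1%) in Myh10-/- lungs. Only reads placed on a single gene are counted. More windows were shared in the alpha pair (62.2% and 81.0%) than in the beta pair (55.8% and 56.6%), so these are not shares of the RNA. The spread within a genotype was small beside the difference of -2.15 percentage points, and the exact permutation test gave p = 0.333, its smallest value. Within each pair the split was alike in all lungs. Hba-a2 took between 39.0% and 40.4% of adult alpha reads, and Hbb-bt between 23.1% and 23.9% of adult beta reads, with overlap between genotypes in both. All adult globins together took 0.412% and 0.521% of all counts in Myh10+/+ lungs and 0.372% and 0.421% in Myh10-/- lungs, which overlapped.

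**Figure D3:**
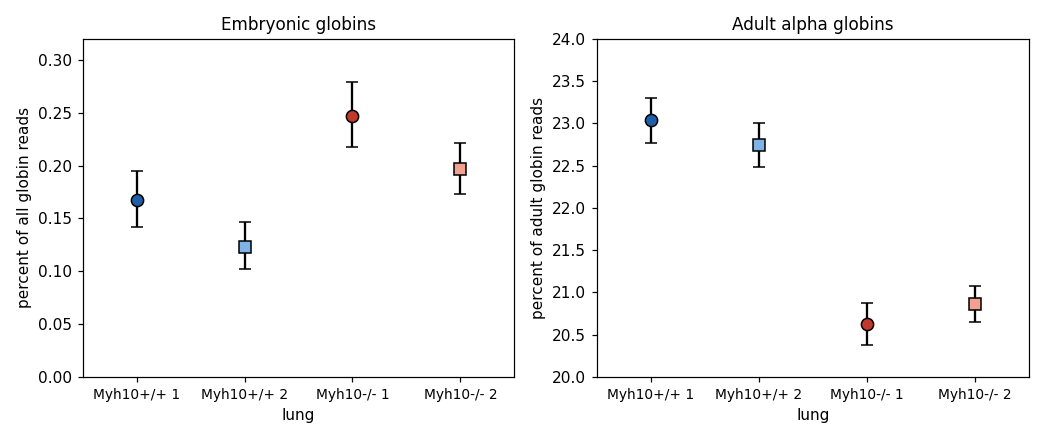
Share of embryonic globins among all globin reads (left, percent, axis from 0) and of the adult alpha genes among adult globin reads (right, percent, axis from 20 to 24) in each lung, with 95% Clopper-Pearson intervals for counting error. The Myh10-/- lungs lie above the Myh10+/+ lungs on the left, at 0.247% and 0.197% against 0.167% and 0.123%, and below them on the right, at 20.6% and 20.9% against 23.0% and 22.7%.

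Upstream sequence is shown for the globins of either stage and for Alas2, since these genes were fitted in different directions. The bases are the 120 before the RefSeq start on GRCm38.p6, read 5′ to 3′ on the gene's strand, at chr11:32296372-32296491 on the plus strand (Hba-a2), chr11:32276480-32276599 on the plus strand (Hba-x), chr7:103827929-103828048 on the minus strand (Hbb-bs), chr7:103853208-103853327 on the minus strand (Hbb-y) and chrX:150547297-150547416 on the plus strand (Alas2). Capitals mark, on either strand, the letters CACCC of the box bound by Klf1-type factors, the letters CCAAT of the box of that name, the letters GATAA as a GATA factor motif and the letters TATAA as a TATA box.
Hba-a2: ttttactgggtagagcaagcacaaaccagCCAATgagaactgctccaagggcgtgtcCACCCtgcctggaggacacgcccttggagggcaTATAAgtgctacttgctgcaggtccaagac
Hba-x: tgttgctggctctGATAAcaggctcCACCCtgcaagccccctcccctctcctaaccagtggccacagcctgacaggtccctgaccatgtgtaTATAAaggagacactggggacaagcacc
Hbb-bs: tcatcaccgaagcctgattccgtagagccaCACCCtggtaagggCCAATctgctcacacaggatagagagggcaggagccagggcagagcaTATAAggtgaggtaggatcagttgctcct
Hbb-y: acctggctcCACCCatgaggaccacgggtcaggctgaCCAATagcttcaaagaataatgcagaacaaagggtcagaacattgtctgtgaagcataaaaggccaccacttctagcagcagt
Alas2: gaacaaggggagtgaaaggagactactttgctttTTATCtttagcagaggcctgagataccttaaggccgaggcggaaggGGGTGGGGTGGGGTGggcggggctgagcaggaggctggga
The adult genes Hba-a2 and Hbb-bs held a CACCC box, a CCAAT box and a TATA box in that window. Hba-x held a CACCC box, a GATA motif and a TATA box, Hbb-y held a CACCC box and a CCAAT box, and Alas2 held a CACCC box and a GATA motif, both on the opposite strand. With starts placed 3 bases apart, the 247 upstream bases compared between Hba-a1 and Hba-a2 were identical. The motifs are common, and were held in windows of this length by 31.7% (CACCC box), 21.3% (CCAAT box), 10.5% (GATA motif) and 11.8% (TATA box) of 32851 RefSeq promoters. Of 33 promoter entries for 28 of the 38 genes, 21 held a CACCC box, 12 a CCAAT box, 13 a GATA motif and 7 a TATA box. A match is a run of letters and not a bound site.

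Of the 7 haem enzymes, the erythroid first enzyme was lower and the rest did not pass the test. Alas2, which condenses glycine with succinyl-CoA in erythroid cells, was counted at 82.1 and 107 CPM in Myh10+/+ lungs and at 62.1 and 69.1 CPM in Myh10-/- lungs. Both Myh10-/- lungs lay below both Myh10+/+ lungs. Alas2 fell by 0.53 on the log2 scale (SE 0.10, edgeR adjusted p = 0.0293), to 69.5% of the Myh10+/+ level. It was called in 11 of 13 alternatives, and was lost with DESeq2's Wald test (adjusted p = 0.141) and without Myh10+/+ lung 2 (adjusted p = 0.0680, log2 fold change -0.32). Alas2 (ENSMUSG00000025270) lies on chromosome X from 150547375 to 150570638 on the plus strand. Of its windows, 11.7% are shared with Apex2, an opposite-strand gene with which its exons have 372 bp in common, and the strand setting of the counting is not given in the sources used here. The 2 Xist-high lungs had 82.1 and 69.1 CPM, and the 2 others 107 and 62.1 CPM. With 1 lung of either sex per genotype, an effect of sex on this X-linked gene was not tested.

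The enzymes after Alas2 are used by most cells as well as by red cells. Alad, the second enzyme, was counted at 83.4 and 83.1 CPM in Myh10+/+ lungs and at 65.7 and 76.1 CPM in Myh10-/- lungs, with no overlap (log2 fold change -0.23, SE 0.08, adjusted p = 0.153). It was called in 2 of 14 alternatives, 1 of them without Myh10-/- lung 2 (adjusted p = 0.00849), and without Myh10-/- lung 1 its log2 fold change was -0.13 (adjusted p = 0.444). Urod, which decarboxylates uroporphyrinogen, was counted at 49.0 and 53.0 against 43.9 and 47.0 CPM (log2 fold change -0.16, SE 0.08, adjusted p = 0.318). These 2 were in the direction of Alas2 without passing. The others were close to level. Uros, Cpox, Ppox and Fech, which close and oxidise the ring and insert iron, had overlapping genotypes and log2 fold changes between -0.07 and 0.04. The median over the 7 enzymes was -0.07, and only Alas2 and Alad had an unadjusted p under 0.05. Exons of Cpox and Ppox overlap genes on the opposite strand over 204 and 791 bp.

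The iron and carrier genes went in mixed directions. Tfrc, the transferrin receptor, was counted at 189 and 190 CPM in Myh10+/+ lungs and at 197 and 195 CPM in Myh10-/- lungs (log2 fold change 0.05, SE 0.05, adjusted p = 0.635). Slc25a37, the mitochondrial iron importer mitoferrin-1, was counted at 98.7 and 102 against 115 and 106 CPM. It was higher in both Myh10-/- lungs, with a log2 fold change of 0.14 (SE 0.06, unadjusted p of 0.0408, adjusted p = 0.275). Of its windows, 9.52% are shared with other genes. Tspo2, an erythroid relative of the outer mitochondrial membrane translocator protein, was counted at 1.70 and 1.94 against 1.37 and 1.06 CPM (log2 fold change -0.59, SE 0.27, adjusted p = 0.307). None of the 3 passed the edgeR test, and 1 had an unadjusted p under 0.05.

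Of the 4 membrane genes, 3 were fitted lower and none passed the edgeR test, with Slc4a1 and Sptb nearest to the threshold and at an unadjusted p under 0.05. Slc4a1 (ENSMUSG00000006574), the band 3 anion exchanger that anchors the red cell skeleton, was counted at 15.0 and 20.3 CPM in Myh10+/+ lungs and at 12.2 and 11.7 CPM in Myh10-/- lungs. Its log2 fold change was -0.55 (SE 0.12, edgeR adjusted p = 0.0503), just outside the threshold, and 11 of 14 alternatives called it, DESeq2's Wald test among them (adjusted p = 0.0319). Without Myh10+/+ lung 2 the log2 fold change was -0.32 (adjusted p = 0.349), and without any 1 of the other lungs the gene was called. Sptb, erythroid beta spectrin, was counted at 27.9 and 27.2 against 21.3 and 22.9 CPM (log2 fold change -0.32, SE 0.07, adjusted p = 0.0540). Its replicates lay closer together than those of Slc4a1, and it was called in 4 of 14 alternatives. Of the fits that left out a lung, that without Myh10-/- lung 2 called it (adjusted p = 0.00815) and the other 3 did not (0.150 to 0.316), nor did DESeq2's Wald test (0.120). Ank1, the ankyrin that ties spectrin to band 3, was counted at 2.88 and 4.20 against 2.84 and 2.45 CPM (log2 fold change -0.41, SE 0.23, adjusted p = 0.397), and 862 bp of its exons overlap an opposite-strand gene. Epb42, protein 4.2, had 15 to 23 reads per lung and a log2 fold change of 0.02 (SE 0.35). The median over the 4 genes was -0.36.

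The blood group and surface genes were near the limit of counting. Rhd, the Rh blood group protein, was counted at 0.436 and 0.840 CPM in Myh10+/+ lungs and at 0.251 and 0.280 CPM in Myh10-/- lungs, which was 10, 16, 7 and 9 reads. Its log2 fold change of -1.21 (SE 0.49, unadjusted p of 0.0293, adjusted p = 0.239) was the lowest of the 34 and did not pass. Kel, Ermap and Rhag had log2 fold changes of -0.38, -0.36 and -0.24 with SE between 0.30 and 0.39. Their genotypes did not overlap for Kel and Rhag and did for Ermap. Cldn13, a claudin found in mouse erythroblasts, had 1, 1, 6 and 2 reads and was not tested.

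The erythropoietin receptor and the transcription regulators were low in every lung. Nfe2, a subunit of the NF-E2 factor of erythroid cells and megakaryocytes, was counted at 3.80 and 3.67 CPM in Myh10+/+ lungs and at 2.98 and 2.33 CPM in Myh10-/- lungs. The genotypes did not overlap, with a log2 fold change of -0.50 (SE 0.20, unadjusted p of 0.0305, adjusted p = 0.243). Epor, the erythropoietin receptor, was counted at 4.62 and 3.99 against 4.06 and 3.29 CPM (log2 fold change -0.24, SE 0.19, adjusted p = 0.559). Klf1 and Gata1, the leading erythroid activators, were counted between 0.611 and 0.785 CPM and between 0.435 and 0.654 CPM. Their genotypes overlapped, with log2 fold changes of -0.07 (SE 0.37) and -0.25 (SE 0.41). Hemgn, a nuclear protein of blood progenitors, had 3 to 10 reads per lung and a log2 fold change of 0.47 (SE 0.63). None of the 5 passed the edgeR test, and Nfe2 alone had an unadjusted p under 0.05.

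Genes of late maturation were lower without passing. Trim10, a ubiquitin ligase family member needed in erythroid differentiation, was counted at 2.79 and 2.68 CPM in Myh10+/+ lungs and at 1.72 and 1.46 CPM in Myh10-/- lungs. Replicates were close and the genotypes apart, with a log2 fold change of -0.79 (SE 0.23, unadjusted p of 0.00515, adjusted p = 0.115). Tmcc2, a transmembrane coiled-coil protein, was counted at 36.7 and 37.6 against 32.7 and 31.2 CPM (log2 fold change -0.22, SE 0.07, adjusted p = 0.166). Trim58, a ubiquitin ligase of enucleating erythroblasts, had 3, 3, 2 and 2 reads and was not tested. Among red cell enzymes, Bpgm, which makes 2,3-bisphosphoglycerate, was counted at 62.9 and 67.7 against 51.7 and 58.7 CPM (log2 fold change -0.24, SE 0.08, adjusted p = 0.160). Bpgm was called in 1 of 14 alternatives, without Myh10-/- lung 2 (adjusted p = 0.0155), and without Myh10-/- lung 1 its log2 fold change was -0.15 (adjusted p = 0.442). The carbonic anhydrase Car2 was counted between 247 and 273 CPM with overlap (log2 fold change -0.05, SE 0.05), and Car1 had 0 or 1 read per lung and was not tested.

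The highest value lay most often in Myh10+/+ lung 2. Of the 34 genes, 16 were highest in Myh10+/+ lung 2, 9 in Myh10+/+ lung 1, 7 in Myh10-/- lung 1 and 2 in Myh10-/- lung 2. The lowest value lay in Myh10-/- lung 1 for 17 genes and in Myh10-/- lung 2 for 10. This order was not particular to the list. Of 48 tested genes of erythroid, haem and iron biology outside it, 22 were highest in Myh10+/+ lung 2 and 26 lowest in Myh10-/- lung 1. The share over all genes was not computed. The median log2 fold change over the list was -0.16 without Myh10+/+ lung 2 and -0.15 without Myh10-/- lung 1.

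**Figure D4:**
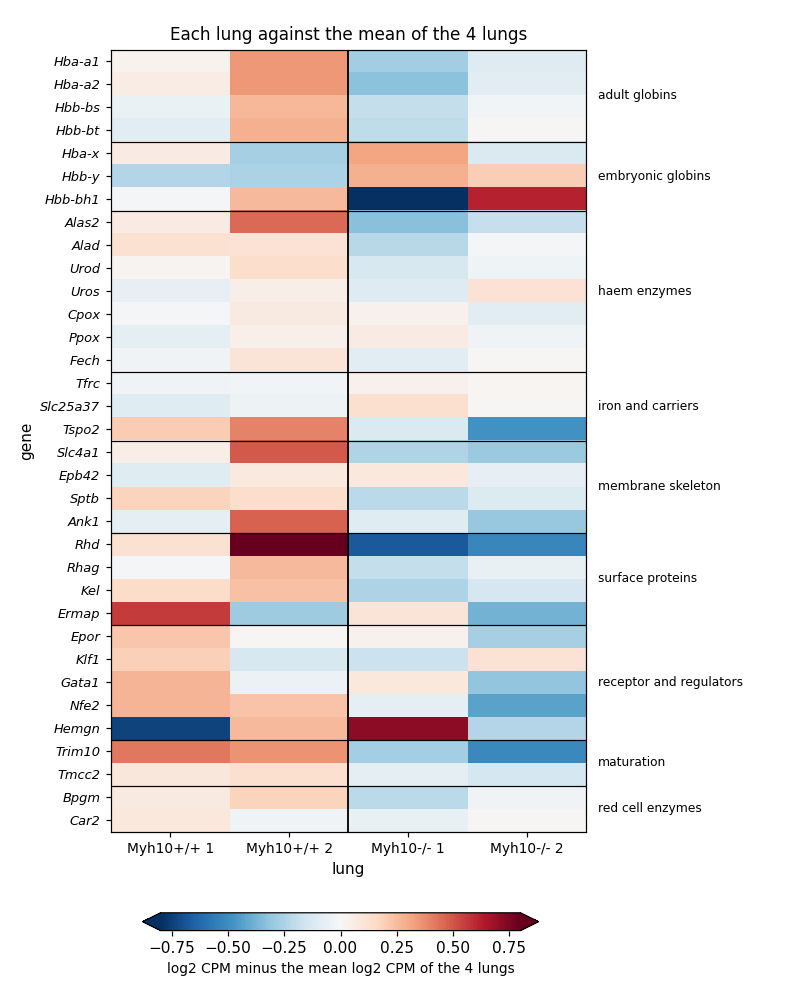
Log2 CPM of each tested gene (y axis) in each lung (x axis) minus the mean log2 CPM of the 4 lungs, red for higher and blue for lower, grouped by role. The column of Myh10+/+ lung 2 is red for the adult globins, Alas2, Slc4a1, Ank1 and Rhd, while Hbb-y is blue in both Myh10+/+ lungs and red in both Myh10-/- lungs.

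Erythroid genes were also set against the adult globin reads of the same lung, for genes chosen after their values had been seen. Alas2 had 19.7 and 20.5 reads per 1000 adult globin reads in Myh10+/+ lungs and 16.8 and 16.5 in Myh10-/- lungs. Slc4a1 had 3.59 and 3.89 against 3.31 and 2.80, and Trim10 0.670 and 0.512 against 0.468 and 0.348. For these 3 genes both Myh10-/- lungs lay below both Myh10+/+ lungs, each with an exact permutation p = 0.333, the smallest possible. For Sptb the genotypes overlapped, with 6.70 and 5.21 against 5.77 and 5.45.

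**Figure D5:**
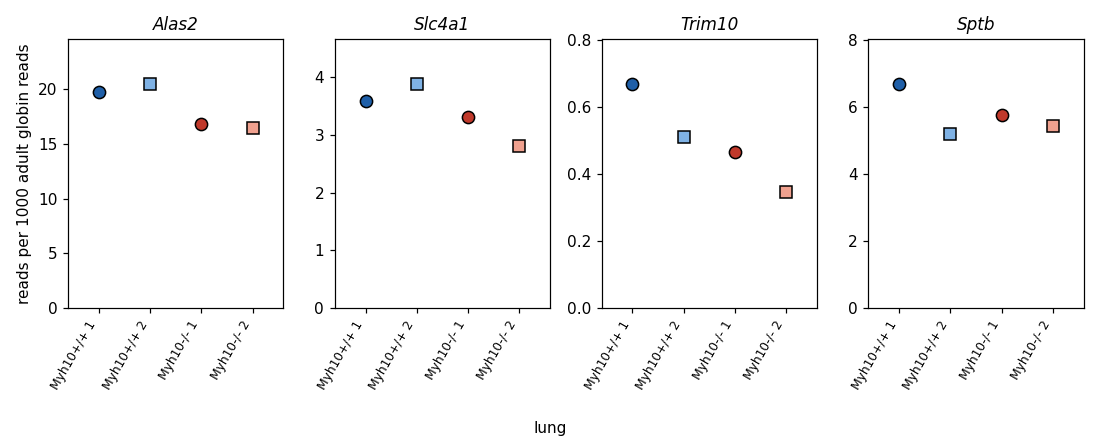
Reads of 4 erythroid genes per 1000 adult globin reads (y axis, from 0, a scale for each gene) in each lung (x axis). Alas2, Slc4a1 and Trim10 are lower in both Myh10-/- lungs, Alas2 at 16.8 and 16.5 against 19.7 and 20.5, while Sptb overlaps between genotypes.

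A further 51 genes of erythroid, haem and iron biology outside the list gave a similar count of calls and a median closer to 0. Of the 48 tested, 35 were fitted lower and 13 higher, with a median log2 fold change of -0.07, and 3 were called lower, beside 1.34% of all tested genes. The edgeR test called 0 higher, as did DESeq2's Wald test among the genes to which it gave an adjusted p-value. At an unadjusted p under 0.05, 10 were lower and 2 higher, beside 9.02% and 7.52% of all tested genes. Aqp1, a water channel of red cells that lung endothelium also makes, was counted at 337 and 316 CPM in Myh10+/+ lungs and at 200 and 251 CPM in Myh10-/- lungs. It fell by 0.54 on the log2 scale (SE 0.08, edgeR adjusted p = 0.0108) and was called in 14 of 14 alternatives. Tmod1, the tropomodulin that caps actin filaments in the red cell skeleton and in striated muscle, was counted at 17.4 and 15.9 against 11.7 and 12.9 CPM. It fell by 0.44 (SE 0.09, adjusted p = 0.0420) and was called in 11 of 14 alternatives. The call was lost without Myh10+/+ lung 1 (adjusted p = 0.202), without Myh10-/- lung 1 (0.170) and with DESeq2's Wald test (0.0855). Exons of Tmod1 overlap an opposite-strand gene over 1287 bp. Slc25a39, a mitochondrial carrier of glutathione used in haem synthesis, was counted at 104 and 110 against 88.6 and 90.4 CPM. It fell by 0.26 (SE 0.06, adjusted p = 0.0475) and was called in 9 of 14 alternatives. The call was lost without Myh10+/+ lung 1 (adjusted p = 0.132), without Myh10+/+ lung 2 (0.268), with DESeq2's size factors (0.0504), with library totals (0.0568) and with the crossed block (0.0541).

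Some markers of other cells moved beside the erythroid genes, and the counts called lower stand beside 1.34% of all tested genes. Of 5 cardiac muscle markers, 4 were tested and 3 were called lower, Myh6, Myl7 and Tnnt2, with log2 fold changes of -0.73, -0.65 and -0.57. Their summed level was 183 and 234 CPM in Myh10+/+ lungs and 147 and 134 CPM in Myh10-/- lungs, so that Myh10+/+ lung 2, the lung richest in adult globins, was also highest here. Of 10 leukocyte markers, 8 were tested and 2 were called lower, Lyz2 (log2 fold change -0.44) and S100a9 (-0.55). The 10 summed to 302 and 283 against 209 and 246 CPM, of which Lyz2 alone was 186 and 173 against 117 and 148 CPM. Of the 8, 7 were fitted lower and Cd68 was not (0.08). The granulocyte genes Mpo and Elane had 0 to 3 reads. The 8 megakaryocyte and platelet markers summed to between 23.2 and 28.4 CPM, and the lowest unadjusted edgeR p among them was 0.141. Fetal liver was barely seen, as its 5 hepatocyte markers summed to 9.42 and 5.04 against 8.69 and 3.79 CPM. Of 5 epithelial markers 2 were called lower, Sftpb (-0.48) and Cdh1 (-0.30). Their summed levels were 7597 and 7398 against 5352 and 6235 CPM. Most of that sum was Sftpc (5812 and 5627 against 3874 and 4748 CPM), while Nkx2-1 (0.02) and Epcam (-0.04) were close to level. The 5 endothelial markers summed to 1291 and 1233 against 1189 and 1146 CPM, without overlap. All 5 were fitted lower and none was called. The 5 mesenchymal ones summed to 2832 and 2936 against 2848 and 2759 CPM, with overlap. The part of these cell markers in the erythroid differences was not tested.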

How the data were processed

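The authors deposited raw read counts, not normalized, for every Ensembl gene and lung. Before deposition they trimmed 75-base single-end reads of stranded mRNA libraries, aligned them to GRCm38 with STAR (2.4.0a in the submitters' processing notes) and counted exonic reads with featureCounts (1.5.1), leaving out reads that fell on several genes or aligned to several regions, which removes reads from near-identical globin genes. Whether strand was used in counting is not given in the sources used here. Total counts were 23156026 and 19116971 in Myh10+/+ and 27573824 and 32055306 in Myh10-/- lungs, grouped by their labels, so the 2 lungs per genotype and not the depth limit the precision of well counted genes.

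From these counts, edgeR 4.0.16 (R 4.3.3) with TMM scaling and the quasi-likelihood test (robust = FALSE) was fitted on the 18763 genes that averaged at least 5 counts over the lungs. p-values were adjusted by Benjamini-Hochberg over all of them, and a gene was called at an adjusted p under 0.05. Standard errors were the log2 fold change divided by the square root of F. The fit was tested on simulated data. The genes, role groups, pathway and marker lists were chosen with earlier results of these data known. All 38 members are named, and of the other lists those past an adjusted p of 0.05. Mpo, Elane, Cd68, Sftpc, Nkx2-1 and Epcam were named after their values were seen. The values of 1 gene of the pathway list are not reported here. Alternatives were DESeq2 1.42.0 (size factors, and its Wald test), library totals, TMM without erythroid genes, other filters, robust = TRUE, replicate and crossed blocks, no X, Y or MT genes, a threshold of 0.1 and leaving out each lung, which leaves 1 lung in a genotype that is assumed to vary like the others. The crossed block, the fit without X, Y and MT genes (chromosomes from GENCODE M21), summed globin pairs and window-corrected shares were added after seeing the data.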

Additional observations from a re-analysis of the deposited data

How the results depend on the processing

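The number of members called lower, 2, was 1 with DESeq2's size factors, 1 with filterByExpr, 1 with DESeq2's Wald test (Slc4a1), 4 with robust = TRUE, 9 with no filter, 5 at an adjusted p under 0.1, and 0 to 9 with each lung left out. Without Myh10-/- lung 2, where 9 members were called, 875 genes were called lower and 768 higher in all, against 252 and 56 with every lung. With no filter, 688 and 474 were called and 1 member was higher. With the replicate number as a block, 5 members were called lower, and with the crossed block 4. Same-numbered lungs deviated with a correlation of -0.346 across genes, or 0.03 without X, Y and MT genes, so the numbers were not taken as pairs. Replicate and crossed blocks called 466 and 320 genes lower and 244 and 95 higher in all, robust = TRUE 339 and 135, and library totals 233 and 111. DESeq2's size factors called 230 lower and 48 higher in all, filterByExpr 237 and 50, and DESeq2's Wald test 259 and 92. The count over all genes at an adjusted p under 0.1 is not given here.

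The median of the members lay between -0.26 and -0.15 with each lung left out. With each lung left out, the medians ranged from -0.46 to -0.13 for adult globins, 0.10 to 0.44 for embryonic globins, -0.14 to -0.0131 for haem enzymes, -0.49 to -0.22 for membrane genes, -0.51 to -0.37 for surface genes, -0.42 to -0.0672 for regulators, -0.58 to -0.42 for maturation genes and -0.21 to -0.0831 for red cell enzymes. The embryonic median was 0.33 with filterByExpr, where Hbb-bh1 was dropped. The median of iron genes was 0.0689 with library totals, and with no filter those of maturation genes and red cell enzymes were -0.78 and -0.0482. Other pathway genes called lower numbered 6 with no filter and 2 to 9, with 0 to 1 higher, with each lung left out. With reads divided by the windows found in no other gene, the mean embryonic share was 0.0527% in Myh10+/+ and 0.0832% in Myh10-/- lungs. The difference was then 0.0305 percentage points, against 0.0764 without that division. The ratio of Myh10-/- to Myh10+/+ shares was 1.58 with it and 1.53 without.

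Signs turned only where a lung was left out, with log2 fold changes from -0.0352 to 0.39 (Hba-x), -0.97 to 0.49 (Hbb-bh1), -0.0875 to 0.13 (Uros), -0.12 to 0.00819 (Cpox), -0.0220 to 0.0931 (Ppox), -0.0692 to 0.10 (Epb42), -0.69 to 0.15 (Ermap), -0.22 to 0.11 (Klf1) and -0.11 to 0.00572 (Car2). None of these genes was called. Beyond the values given, the cause of each change was not tested. At under 30 reads per lung the SE limits what could be detected, as for Epb42 (0.35), Klf1 (0.37), Gata1 (0.41), Rhd (0.49) and Hemgn (0.63).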
